A study of Mus musculus with 11 samples.

Results

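The tumor necrosis factor (TNF) superfamily was examined in the lungs of mice that had carried a 4T1-luc2 mammary tumor and received αChemR23 or hIgG1. Its members were taken as all genes of the table whose symbol begins with Tnfsf or Tnfrsf, together with Tnf, Lta, Ltb, Ltbr, Fas, Fasl, Cd27, Cd70, Cd40 and Cd40lg. This gave 34 of the 770 genes measured, 16 ligands and 18 receptors. RNA was quantified by nCounter, an assay that counts barcoded probes hybridized directly to RNA with no amplification step, and values are log2 normalized counts.

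Female BALB/c mice, 8 weeks old, were all injected in the mammary fat pad with 4T1-luc2 cells, a luciferase-tagged mouse breast carcinoma line that colonizes the lung, and all had the tumor resected on day 13. Antibody dosing, at 1 mg/kg into the peritoneum, thus began before the resection, on day 7, and went on after it until day 28, with 3 injections in each week. The antibody was either αChemR23 (antiChemR23 in the labels), an agonist of the chemerin and resolvin E1 receptor ChemR23, or hIgG1, a human IgG1 used as the control. The labels give 5 hIgG1 mice (3, 4, 6, 7 and 8) and 6 αChemR23 mice (9, 10, 13, 14, 15 and 16), with 1 lung each, while the design text gives 4 and 7, and the labels were followed. Lungs were taken when each mouse was euthanized, on an unstated day, and were digested to single cells before RNA was extracted, so that collection day and metastatic load cannot be told apart from treatment. The measured RNA is that of all lung cells and of any tumor cells, and fewer cells of a type and less RNA per cell cannot be told apart in such samples. The endothelial marker Pecam1 lay at 12.50 to 12.74 and the epithelial marker Epcam at 8.51 to 8.97 over the 11 mice, and Cmklr1, which encodes ChemR23, at 10.21 to 10.68. The total was 526091 to 715706 normalized counts per mouse, and the lowest value, which is shared by 33 to 97 genes of a mouse, ran from 3.15 to 4.01 between mice.

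TNF superfamily ligands are trimeric proteins, most of them first displayed on the cell surface, and they act by clustering their receptors. Receptors with a death domain, such as Fas, TNF receptor 1 and the TRAIL receptor, can start caspase-8 dependent death. The other signaling members, and TNF receptor 1 as well, recruit TRAF adapters and turn on NF-kB. By these routes the family organizes lymphoid tissue (lymphotoxin and LIGHT), keeps B cells and plasma cells alive (BAFF and APRIL), costimulates T cells (OX40, 4-1BB, CD27, GITR), kills target cells (TRAIL and Fas ligand) and directs tissue remodeling (TWEAK and RANK ligand).

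No member of the family passed the test between the groups after adjustment over all genes. The members with the smallest p were 3 ligands: Tnfsf12 (TWEAK) and Tnfsf10 (TRAIL) had a higher mean in αChemR23 mice, by 1.21-fold and 1.22-fold, and Tnfsf13 (APRIL), an immediate neighbor of Tnfsf12 in the genome, a 1.21-fold lower one. The group means of Tnf, its receptors and the lymphotoxins differed by at most 0.20 log2, with Tnf and Lta near the lowest values of the mice. Of the 34 members, 23 averaged at least 20 normalized counts and were tested by limma among 657 genes, 12 ligands and 11 receptors. At an adjusted p under 0.05, 0 of 23 members passed, as did 0% of the 657 genes. At an unadjusted p under 0.05, 2 members had a higher mean in αChemR23 mice, beside 7.15% of all genes, and 1 a lower mean, beside 2.74%. These 3 of 23 are near the background, and the adjusted p of each was 0.483 by limma. The groups overlapped in every one of the 34 members, while they did not in 1.07% of the tested genes. The median difference over the 23 members was -0.02 log2, against 0.03 over all 657 genes, with 9 members higher and 14 lower, where 57.4% of all genes were higher.

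**Figure D1:**
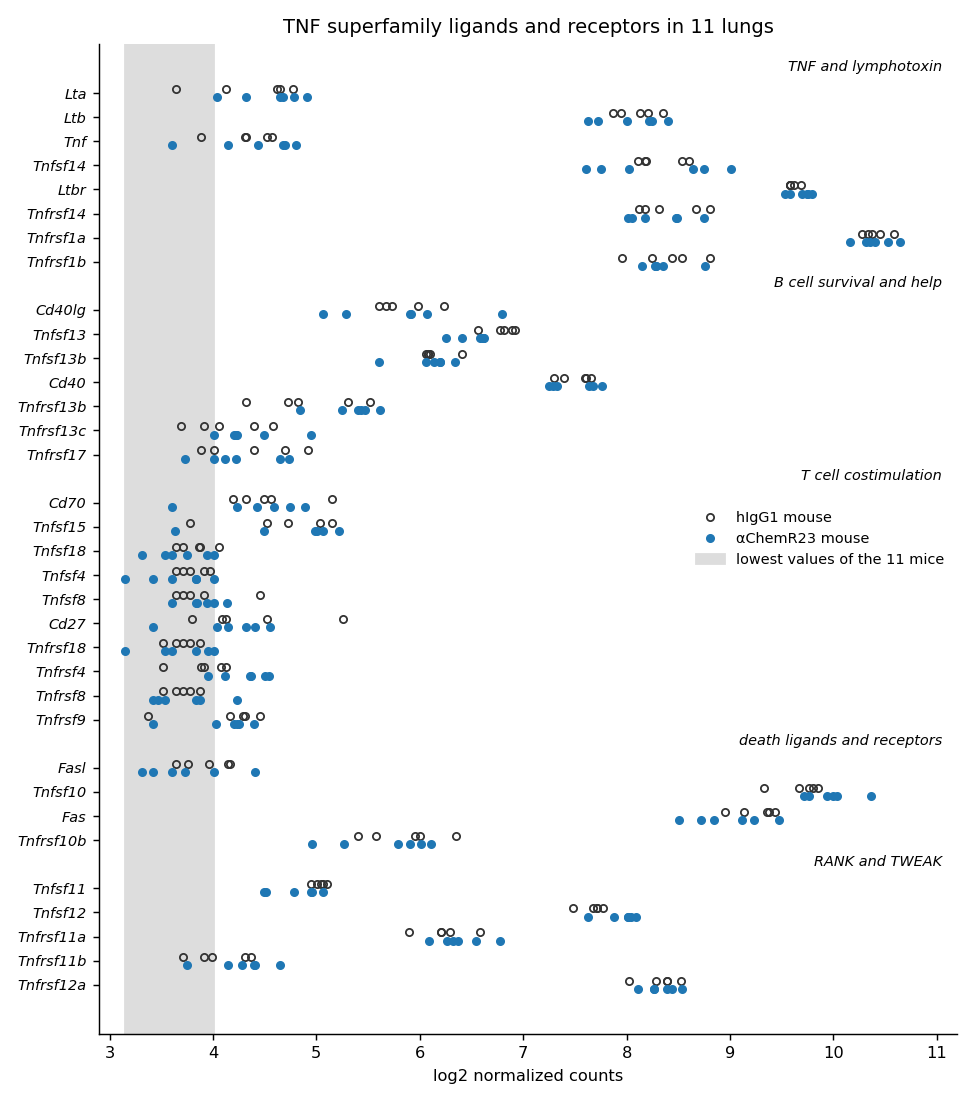
Log2 normalized counts (x axis) of the 34 TNF superfamily members (rows, by role) in each of 5 hIgG1 mice (open circles) and 6 αChemR23 mice (filled circles), with the range of the lowest values of the 11 mice, 3.15 to 4.01, shaded. The groups overlap in each row, and most T cell costimulation genes lie in or beside the shaded band.

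**Figure D2:**
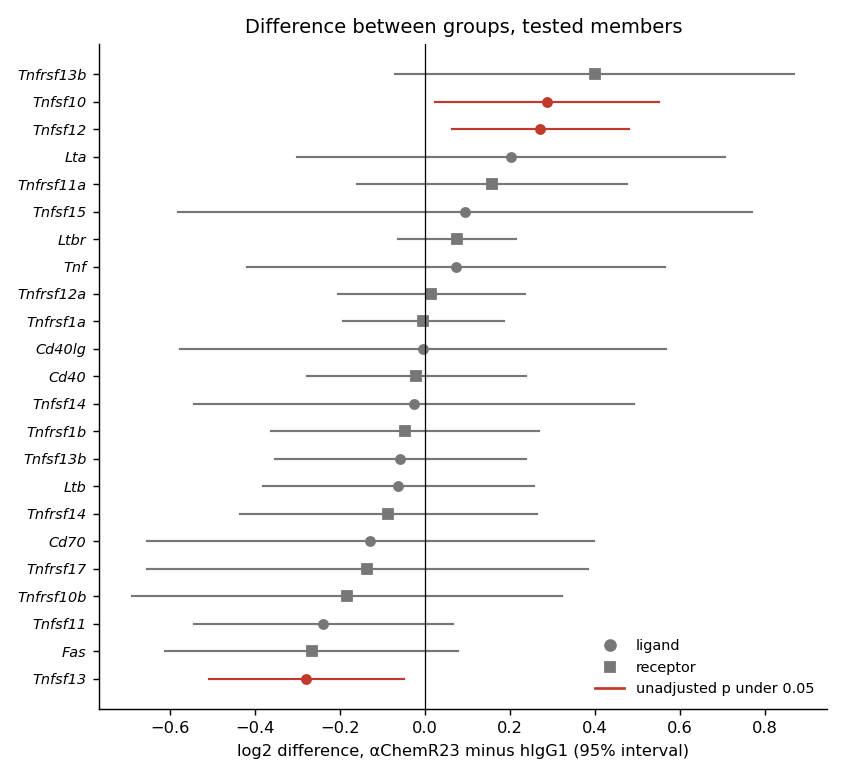
Difference of the group means on the log2 scale (x axis, αChemR23 minus hIgG1) with its 95% interval from limma, for the 23 tested members (rows). The intervals of Tnfsf12, Tnfsf10 and Tnfsf13 lie to one side of 0 and those of the other 20 cross it.

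RefSeq promoter windows (GRCm38.p6, 250 bases before to 50 after the start site) were found for 27 of the 34 members. They were searched on both strands for an NF-kB motif, the PU.1 core GAGGAA, the STAT-binding GAS element TTCNNNGAA and the interferon response core GAAANNGAAA, which can overlap one another. Windows are shown for Tnfsf13 and Tnfsf10, which reached an unadjusted p under 0.05, and for Tnfsf14 and Tnfrsf1a, which tracked neutrophil markers, with any motif found in capitals. They lie at chr11:69685505-69685804 (minus strand), chr3:27316827-27317126 (plus strand), chr17:57194132-57194431 (minus strand) and chr6:125349473-125349772 (plus strand) in that order.
Tnfsf13: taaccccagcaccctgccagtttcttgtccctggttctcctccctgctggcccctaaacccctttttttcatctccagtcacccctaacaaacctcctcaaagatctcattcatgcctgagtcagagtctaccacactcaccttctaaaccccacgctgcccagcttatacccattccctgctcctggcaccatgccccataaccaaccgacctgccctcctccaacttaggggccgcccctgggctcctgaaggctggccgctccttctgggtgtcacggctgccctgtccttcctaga
Tnfsf10: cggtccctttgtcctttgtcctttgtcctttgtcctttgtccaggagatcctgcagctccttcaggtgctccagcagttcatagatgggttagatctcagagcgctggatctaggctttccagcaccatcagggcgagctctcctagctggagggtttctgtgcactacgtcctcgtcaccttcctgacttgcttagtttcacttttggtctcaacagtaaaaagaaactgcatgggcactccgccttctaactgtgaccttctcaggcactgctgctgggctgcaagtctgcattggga
Tnfsf14: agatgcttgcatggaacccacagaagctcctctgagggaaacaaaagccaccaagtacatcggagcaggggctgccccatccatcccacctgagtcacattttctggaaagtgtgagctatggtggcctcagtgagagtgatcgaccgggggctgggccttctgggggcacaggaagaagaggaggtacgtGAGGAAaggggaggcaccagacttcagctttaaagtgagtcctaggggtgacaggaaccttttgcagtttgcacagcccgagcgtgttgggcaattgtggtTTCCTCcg
Tnfrsf1a: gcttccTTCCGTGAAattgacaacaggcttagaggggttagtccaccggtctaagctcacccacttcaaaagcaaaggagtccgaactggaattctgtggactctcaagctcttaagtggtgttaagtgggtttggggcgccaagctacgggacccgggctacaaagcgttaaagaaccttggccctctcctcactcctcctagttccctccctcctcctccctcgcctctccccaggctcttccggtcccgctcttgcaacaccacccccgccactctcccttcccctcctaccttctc
None of the 4 motifs was found in the windows of Tnfsf13 and Tnfsf10. The Tnfsf14 window held the PU.1 core 2 times, at 59 bases before and, on the other strand, 42 bases after the start site, and the Tnfrsf1a window a GAS element 244 bases before it. The PU.1 core occurred in 28.3% of all 32851 windows and the GAS element in 8.30%. Among the 29 windows of the 27 matched members, 9 held a PU.1 core, 7 a GAS element, 4 an interferon response core (3.44% of all windows) and 3 an NF-kB motif (8.46%). A match is a description of the letters only.

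TNF and lymphotoxin genes showed no separation of the groups. Tnf, the founding inflammatory cytokine, was at 4.58, 4.32, 4.31, 4.52 and 3.88 in hIgG1 mice 3, 4, 6, 7 and 8, and between 3.60 and 4.80 (median 4.56) in αChemR23 mice. αChemR23 mice 9, 10 and 13 lay above every hIgG1 mouse, and mouse 14 was at its lowest value. The difference was 0.07 (95% interval -0.42 to 0.57, adjusted p = 0.941 from limma). Tnf averaged 21.1 normalized counts and Lta 22.9, close to the filter of 20 and to the lowest values of the mice. A difference between the groups is poorly resolved at that level. Of the tested members, 5 lay at the lowest value of at least 1 mouse, Tnf and Lta among them.
Tnfrsf1a, the widely expressed TNF receptor with a death domain, was at 10.45, 10.28, 10.38, 10.59 and 10.34 in the hIgG1 mice, and at 10.16 to 10.64 (median 10.38) in αChemR23 mice. The means of the groups were 10.41 ± 0.12 (SD, n = 5) and 10.40 ± 0.17 (SD, n = 6), with an interval of the difference from -0.19 to 0.18. Tnfrsf1b, the second TNF receptor, found mainly on blood and endothelial cells, was at 8.44, 7.96, 8.25, 8.81 and 8.54 in the hIgG1 mice, and at 8.15 to 8.76 (median 8.28) in αChemR23 mice. All αChemR23 values lay inside the hIgG1 range. αChemR23 mouse 16 stood at 8.76, and the other 5 lay within 8.15 to 8.35.
Of the other 5 genes, Lta, the soluble lymphotoxin, differed by 0.20 (interval -0.30 to 0.70) and lay at its lowest value in hIgG1 mouse 4, without which the difference was 0.02. Ltb, which anchors lymphotoxin at the membrane, differed by -0.06, and Ltbr, the receptor that organizes lymph nodes, by 0.07. Ltbr had the narrowest range of the tested members, 0.27 log2 over all 11 mice, and 4 of 6 αChemR23 mice were above every hIgG1 mouse. Tnfsf14 (LIGHT), which shares Ltbr with lymphotoxin, had nearly equal means, 8.32 ± 0.23 (SD, n = 5) and 8.30 ± 0.58 (SD, n = 6). Its αChemR23 values ran from 7.61 to 9.01, with 3 mice below and 3 above all hIgG1 mice, and this wider spread was not tested. Tnfrsf14 (HVEM), the second LIGHT receptor, differed by -0.09. Adjusted p over these 8 genes was 0.693 to 0.990 by limma.

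The BAFF and APRIL system, whose ligands share receptors on B cells and plasma cells, held 1 of the members at an unadjusted p under 0.05. Tnfsf13 (APRIL), which acts on TACI and BCMA, was at 6.56, 6.92, 6.78, 6.90 and 6.82 in hIgG1 mice 3, 4, 6, 7 and 8, and at 6.26 to 6.62 (median 6.60) in αChemR23 mice. Every αChemR23 mouse lay below the hIgG1 mice other than mouse 3, and mice 9 and 13 lay below that one too. The difference was -0.28 (standard error 0.11, interval -0.51 to -0.05, adjusted p = 0.483 from limma). Tnfsf13b (BAFF), the survival factor of mature B cells, was at 6.06, 6.10, 6.41, 6.08 and 6.08 in the hIgG1 mice, and at 5.61 to 6.34 (median 6.17) in αChemR23 mice. The interval of its difference, -0.35 to 0.24, held 0.
Tnfrsf13b (TACI), which binds both ligands, was at 5.30, 4.32, 4.82, 5.52 and 4.73 in the hIgG1 mice, and at 4.84 to 5.62 (median 5.42) in αChemR23 mice. It had the largest difference of any tested member, 0.40 (standard error 0.22, interval -0.07 to 0.87, adjusted p = 0.495 from limma), but only 1 αChemR23 mouse exceeded the hIgG1 range, and without hIgG1 mouse 4 the difference was 0.24. Tnfrsf17 (BCMA), a receptor of plasma cells, was at 4.40, 4.69, 4.01, 4.92 and 3.88 in the hIgG1 mice, and at 3.73 to 4.73 (median 4.17) in αChemR23 mice, with a difference of -0.14 (interval -0.66 to 0.38). Tnfrsf13c (BAFF receptor), which was too weak to be tested, was at 4.40, 3.69, 3.92, 4.59 and 4.06, and at 4.01 to 4.94 (median 4.23). The groups overlapped for all 3 receptors and both ligands.
Cd40, which receives T cell help on B cells and antigen-presenting cells, differed by -0.02 (interval -0.28 to 0.24), and Cd40lg, its T cell ligand, by -0.01 (interval -0.58 to 0.57). Cd40lg was at 5.61 to 6.23 in hIgG1 mice, against 5.07 to 6.79 in αChemR23 mice.
B cell marker levels also departed between the groups. Of 8 tested B cell markers, 7 had a higher mean in αChemR23 mice, where 57.4% of all genes did. The median difference of the markers was 0.46, and those at an unadjusted p under 0.05 included Ms4a1, Cd79b and Cr2. The summed level of the list was 512 to 682 normalized counts in hIgG1 mice, against 592 to 962 in αChemR23 mice, and no marker lay at the lowest value in every mouse. With the B cell marker score as a covariate in limma, the difference was -0.17 for Tnfsf13, no longer at an unadjusted p under 0.05, and 0.19 for Tnfrsf13b (adjusted p = 0.668 and 0.863).

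Most T cell costimulation genes were near the detection limit. Of 10 members of this group, 8 were below the filter, among them Tnfrsf18 (GITR), Tnfrsf9 (4-1BB), Cd27 and the ligands Tnfsf4, Tnfsf8 and Tnfsf18. Of the 11 members of the family below the filter, which had means of 13.1 to 19.9 normalized counts, 10 lay at the lowest value of at least 1 mouse and 5 in 5 or more mice, where differences below that value are not resolved. Tnfrsf4 (OX40), a costimulatory receptor of activated and regulatory T cells, was also below the filter, at a mean of 17.8 normalized counts. Tnfrsf4 lay above the lowest value in all mice, but only narrowly in hIgG1 mice 6 and 8, whose lowest values were 3.873 and 3.775. It was at 4.12, 4.08, 3.92, 3.52 and 3.88 in hIgG1 mice and at 3.96 to 4.55 (median 4.36) in αChemR23 mice, with 4 of 6 above every hIgG1 mouse. With no filter, limma gave a difference of 0.40 with a standard error of 0.15 and an adjusted p of 0.548, at an unadjusted p under 0.05. It was singled out after its values were seen. The 2 tested regulatory T cell markers gave no common direction: Il2ra differed by -0.50 and Ikzf2 by 0.07 (adjusted p = 0.379 and 0.905 from limma). Foxp3 and Ctla4 were not tested and were at the lowest value in 6 and 4 mice. Of the tested pair, Cd70, the ligand of CD27, differed by -0.13 (interval -0.66 to 0.40), and Tnfsf15 (TL1A), by 0.09 (interval -0.58 to 0.77). None of the 11 tested T cell markers had a higher mean in αChemR23 mice, where 57.4% of all genes did. Their median difference was -0.16, with 0 at an unadjusted p under 0.05. Their summed level ran from 505 to 1642 in hIgG1 mice, the highest in mouse 8, and from 530 to 1019 in αChemR23 mice.

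Among death ligands and receptors, TRAIL had the higher mean in αChemR23 mice. Tnfsf10 (TRAIL), an interferon-inducible ligand that can kill tumor cells, was at 9.80, 9.33, 9.76, 9.67 and 9.85 in hIgG1 mice 3, 4, 6, 7 and 8, and at 9.71 to 10.36 (median 9.97) in αChemR23 mice. Of 6 αChemR23 mice, 4 lay above every hIgG1 mouse, and hIgG1 mouse 4 stood below all other mice. The difference was 0.29 (standard error 0.12, interval 0.02 to 0.55, adjusted p = 0.483 from limma). Without hIgG1 mouse 4 it was 0.20 (adjusted p = 0.559 from limma), and with the B cell marker score as a covariate 0.09 (adjusted p = 0.866 from limma), and in both fits the unadjusted p was above 0.05. The B cell score departed between the groups, so that the covariate fit cannot separate it from treatment.
Tnfrsf10b, the death receptor for TRAIL in the mouse, differed by -0.18 (interval -0.69 to 0.32). Fas, which starts death on binding Fas ligand, was at 8.95 to 9.44 in hIgG1 mice, against 8.51 to 9.47 in αChemR23 mice, with 3 of 6 below every hIgG1 mouse. Its difference was -0.27 (interval -0.61 to 0.08, adjusted p = 0.510 from limma). Fasl, the ligand carried by cytotoxic lymphocytes, was at the lowest value in 4 mice and was not tested.

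The TWEAK and RANK genes held the member with the smallest p. Tnfsf12 (TWEAK), a ligand of tissue repair and vessel growth whose sources include macrophages and monocytes, was at 7.68, 7.49, 7.78, 7.71 and 7.72 in hIgG1 mice 3, 4, 6, 7 and 8, and at 7.62 to 8.09 (median 8.01) in αChemR23 mice. Of 6 αChemR23 mice, 5 lay above every hIgG1 mouse, and mouse 16 lay within the hIgG1 range. The difference was 0.27 (standard error 0.10, interval 0.06 to 0.48, adjusted p = 0.483 from limma). With the B cell marker score as a covariate it was 0.19 (adjusted p = 0.627 from limma), no longer at an unadjusted p under 0.05. Because that score departed between the groups, this fit cannot separate it from treatment. Tnfrsf12a (Fn14), the inducible TWEAK receptor, was at 8.32 ± 0.19 (SD, n = 5) and 8.34 ± 0.15 (SD, n = 6), with an interval of the difference from -0.21 to 0.23.
Tnfsf11 (RANK ligand), which drives osteoclasts and lymph node formation, was at 4.95 to 5.10 in hIgG1 mice, and at 4.49 to 5.07 in αChemR23 mice, 4 of 6 of which lay below all hIgG1 mice. The difference was -0.24 (interval -0.55 to 0.07, adjusted p = 0.510 from limma). Its receptor Tnfrsf11a (RANK) differed by 0.16 (interval -0.16 to 0.48), and Tnfrsf11b (osteoprotegerin), the decoy receptor, was below the filter.

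**Figure D3:**
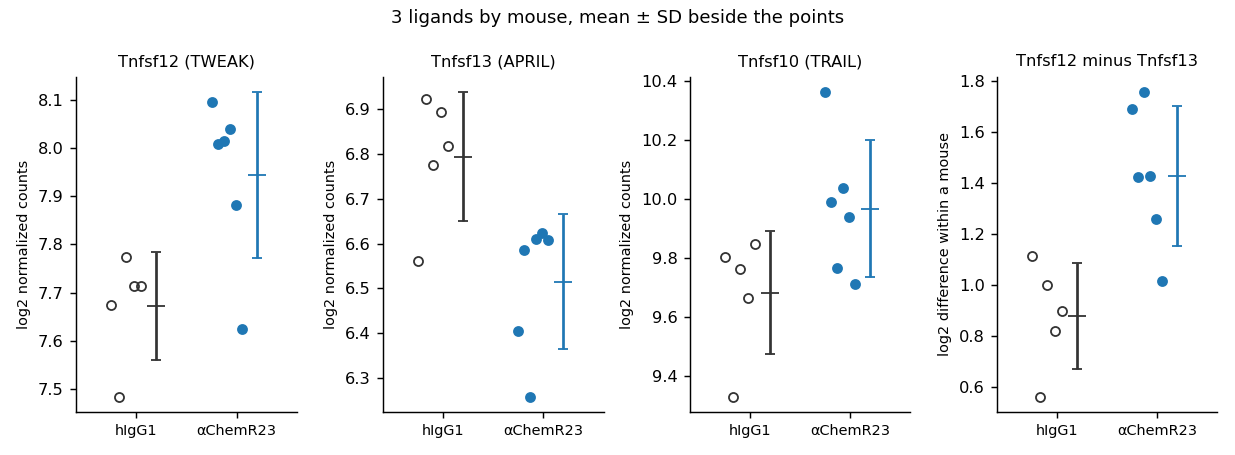
Log2 normalized counts of Tnfsf12, Tnfsf13 and Tnfsf10 and, in the last panel, the log2 difference Tnfsf12 minus Tnfsf13 within each mouse (y axes), in 5 hIgG1 and 6 αChemR23 mice (points), with the mean and SD of each group beside them. Of 6 αChemR23 mice, 5 lie above all hIgG1 mice for Tnfsf12, 4 for Tnfsf10 and 5 for the difference within a mouse.

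Members were also compared in pairs within each mouse, which takes out any scaling of the mouse as a whole. A level here depends on the probe, so that only the change of a pair between groups can be read, with no test. The neighbors Tnfsf12 and Tnfsf13, which have no protein-coding gene between them, had means that departed in opposite directions. These were the members with the smallest p, so that a wider gap between them restates their separate differences and adds no further result. Tnfsf12 minus Tnfsf13 was 1.11, 0.56, 1.00, 0.82 and 0.90 in the hIgG1 mice, and 1.02 to 1.76 (median 1.43) in αChemR23 mice. Of 6 αChemR23 mice, 5 lay above all hIgG1 mice, and the means were 0.88 ± 0.21 (SD, n = 5) and 1.43 ± 0.27 (SD, n = 6). A read-through gene, Tnfsfm13, overlaps both genes in RefSeq, and the probe targets are unknown here, so that the split of signal between them is uncertain. Of 22 ligand and receptor pairs on the panel, 15 had both genes tested, and the groups overlapped in all 15, with the αChemR23 mean higher in 9. Tnfsf13 minus Tnfrsf13b (APRIL and TACI) was 1.86 ± 0.55 (SD, n = 5) and 1.18 ± 0.36 (SD, n = 6), with hIgG1 mouse 4 the highest at 2.61. This pair joins a member at an unadjusted p under 0.05 with the tested member of largest difference. It thus also restates their separate differences. Tnfsf11 minus Tnfrsf11a (RANK ligand and RANK) was -1.20 ± 0.25 (SD, n = 5) and -1.60 ± 0.14 (SD, n = 6), and 5 of 6 αChemR23 mice lay below all hIgG1 mice. Tnf minus Tnfrsf1a was -6.09 ± 0.22 (SD, n = 5) and -6.01 ± 0.42 (SD, n = 6), with Tnf near the lowest values of the mice.

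Members were set against the mean log2 level of B cell, T cell and neutrophil markers over the 11 mice, and 2 of 23 followed the neutrophil list. Tnfsf14 had a Pearson r of 0.933 and a Spearman rho of 0.945 with it (permutation tests, adjusted p = 0.00169 and 0.00540). The r was 0.901 without the 2 mice farthest from the median score, 0.942 on deviations from the group means and 0.936 in αChemR23 mice alone. Tnfrsf1a had an r of 0.922 and a rho of 0.873 (permutation tests, adjusted p = 0.00518 and 0.0427), and an r of 0.844 without the 2 mice, 0.933 on deviations from the group means and 0.983 in αChemR23 mice alone. In the 5 hIgG1 mice alone the r was 0.989 for Tnfsf14 and 0.831 for Tnfrsf1a. Values within 1 group rest on 5 or 6 mice and were not tested. αChemR23 mouse 16 had the highest neutrophil score and mouse 14 the lowest, and they also had the highest and lowest values of both genes. P values were adjusted over 1944 tests of all genes against the 3 lists. Of the 649 genes tested against the neutrophil list, 8.94% passed, so that 2 of 23 members is near the background, and 21 and 26 genes had an r at least as large as Tnfsf14 and Tnfrsf1a. Of the 8 neutrophil markers themselves, 6 were lower on average with αChemR23, where 57.4% of all genes were higher. No neutrophil marker was at an unadjusted p under 0.05. The summed level of the 8 markers was 75215 to 128361 normalized counts in hIgG1 mice, against 36783 to 162886 in αChemR23 mice.
No member passed with the B cell list, as 0.77% of all genes did, or with the T cell list, as 0.464% did. With equal medians in every mouse, Ltbr did pass with the T cell list (r = -0.804, permutation test, adjusted p = 0.0232), where its r was -0.120 on the values as deposited. Tnfsf10 had an r of 0.747 with the B cell list (permutation test, adjusted p = 0.131), which was 0.399 without the 2 mice farthest from the median. Tnfsf13 had an r of -0.718 (permutation test, adjusted p = 0.164) and Tnfsf12 one of 0.649 (permutation test, adjusted p = 0.254), and within groups these were -0.496 and 0.375.

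**Figure D4:**
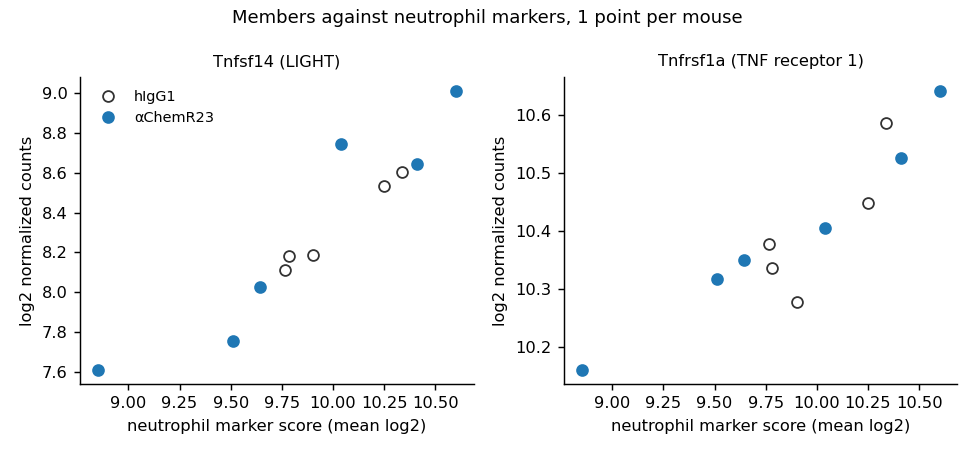
Log2 normalized counts of Tnfsf14 and Tnfrsf1a (y axes) against the neutrophil marker score, the mean log2 level of 8 markers (x axis), with 1 point per mouse (hIgG1 open, αChemR23 filled). The 11 mice lie along a rising line in both panels, with r of 0.933 and 0.922.

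Genes downstream of the receptors gave no call after adjustment. The counts of direction below stand beside 57.4% of all tested genes with a higher mean in αChemR23 mice. Of 6 tested TRAF and receptor adapters, 5 had a higher mean in αChemR23 mice, with 0 at an unadjusted p under 0.05 and a median of 0.05. Of 7 caspases and death regulators, Casp8, the initiator caspase of death receptors, was at 8.78 ± 0.04 (SD, n = 5) and 8.95 ± 0.11 (SD, n = 6), a difference of 0.17 (adjusted p = 0.483 from limma). Bcl2l1, which encodes the survival protein Bcl-xL, was lower on average, by -0.49 log2 (standard error 0.14, adjusted p = 0.301 from limma). Of 15 NF-kB kinases, subunits and inhibitors, 9 were higher and 6 lower, and the kinase gene Ikbke differed by -0.34 (adjusted p = 0.483 from limma). Of 16 NF-kB response genes, 11 had a lower mean, with 0 at an unadjusted p under 0.05 and a median of -0.04. The list of lymphoid tissue genes linked to lymphotoxin had 8 tested: Ccl19, Ccl21a, Cxcl12, Cxcl13, Relb, Nfkb2, Ccr7 and Cxcr5. Relb and Nfkb2 are also among the NF-kB subunits above, and Ccr7 and Cxcr5 are chemokine receptors. All 8 had a higher mean in αChemR23 mice, by 0.02 to 0.35, beside 57.4% of all genes, with 0 at an unadjusted p under 0.05. The lowest unadjusted p among the 8 was 0.146 (limma). Their median was 0.13 against 0.03 over all genes.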

How the data were processed

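Lungs of 5 hIgG1 and 6 αChemR23 mice were measured. The authors counted RNA on an nCounter Sprint, normalized it in nSolver and deposited log2 normalized counts of 770 genes, with nSolver settings unstated. The 20 housekeeping genes averaged 9.01 in each of the 11 mice, which makes every level relative to them. Dividing by the step between low values, which were whole multiples of it within 0.1 of a count, gave an estimated 590856 to 680799 raw counts per mouse. The authors' methods name DESeq2 on standardized counts, which was not run on log2 values. The methods name a panel of another size than the table. Mouse numbers in the labels name separate mice, and no batch is given.
Genes averaging at least 20 normalized counts were tested two-sided in R 4.3.3 by limma 3.58.1, with lmFit and trended eBayes, and with Benjamini-Hochberg adjustment over 657 genes. Correlations used 100000 permutations (numpy 2.4.6). They had been planned with adjustment over the members alone, and are given adjusted over all genes and 3 lists. The limma fit and the permutation p of a Pearson r were tested on simulated data. The members and lists were chosen with earlier results of these data known. Values per mouse are given for members at an unadjusted p under 0.05, Tnf and its receptors and the BAFF and APRIL system, other members by range. The alternatives tried were a minimum mean of 50, no filter, log2(value + 10), quantile normalization, equal medians, 1 common lowest value, array weights, robust eBayes, limma voom, B cell and neutrophil marker scores as covariates, exact Mann-Whitney tests and leaving out each mouse. No genome build is named for the probes, so that promoter windows were matched by symbol. Some members had no window. Results of some genes are not reported here.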

Additional observations from a re-analysis of the deposited data

Results flagged for a closer look

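In 4 of 68 groups of member values, 1 mouse lay farther from the rest of its group than Dixon's 95% limit allows, where chance gives about 1 in 20 groups. For Tnfrsf1b, αChemR23 mouse 16 read 8.76 log2 normalized counts, while the remaining αChemR23 mice read 8.15 to 8.35. For Tnfsf13b, hIgG1 mouse 6 read 6.41, while the remaining hIgG1 mice read 6.06 to 6.10. Tnfrsf9, which was not tested, read 3.38 for hIgG1 mouse 7 against 4.16 to 4.46 for its group, and 3.42 for αChemR23 mouse 13 against 4.03 to 4.40 for its group. Both of these Tnfrsf9 values are the lowest value of that mouse.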

How the results depend on the processing

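Genes at an adjusted p under 0.05 numbered 0 as reported, 1 with quantile normalization 1 with the neutrophil score as a covariate (Cdkn1a in both), and 0 to 3 when each mouse was dropped, 3 without αChemR23 mouse 10. The 65 genes at an unadjusted p under 0.05 became 41 by exact Mann-Whitney tests and 39 to 80 when each mouse was dropped (lacking hIgG1 mouse 3 gave 43 and lacking αChemR23 mouse 9 gave 39). The 3 members became 1 with equal medians (Tnfsf13), 0 by exact Mann-Whitney tests and 1 to 4 when each mouse was dropped, 1 (Tnfsf12) without hIgG1 mouse 4. With a mouse left out, p ran from 0.00154 to 0.0426 for Tnfsf12, from 0.00860 to 0.0522 for Tnfsf13 and from 0.0166 to 0.105 for Tnfsf10. Tnfsf10 was above an unadjusted p of 0.05 without hIgG1 mouse 4 or 7 and without αChemR23 mouse 9, 10 or 14. Quantile normalization left the count at 3, with Fas (-0.29) under this p in place of Tnfsf10 (0.29). Tnfrsf13b came under it without hIgG1 mouse 7 (0.54) or αChemR23 mouse 15 (0.50) and with the neutrophil covariate (0.46), and was 0.24 without hIgG1 mouse 4. With the B cell covariate, Cd40 (-0.25) and Tnfrsf14 (-0.38) were under it in place of these 3. With equal medians p was 0.0538 for Tnfsf12, and 50.4% of all genes were higher, in place of 57.4%, as were 50.8% with quantile normalization. Over all alternatives, 10 of 23 members kept their direction, and the lowest adjusted p of any was 0.150 (limma).
Members with small differences turned. Cd40lg was 0.0067 with log2(value + 10), 0.0229 with array weights and 0.120 with the neutrophil covariate. Tnfsf14 was 0.0088 with array weights, 0.0409 with the B cell and 0.112 with the neutrophil covariate, and Tnfrsf1a was 0.019 and 0.0393 with these covariates. With the B cell covariate Cd70 was 0.0072 and Tnfrsf10b 0.0781. Tnfrsf12a was -0.0263 with quantile normalization and -0.0114 with equal medians, and Tnfsf15 -0.0218 with array weights. With a mouse left out, differences ran from -0.075 to 0.027 for Cd40, -0.196 to 0.149 for Cd40lg, -0.224 to 0.0332 for Cd70, -0.136 to 0.019 for Ltb, -0.0367 to 0.231 for Tnf, -0.0606 to 0.0647 for Tnfrsf12a, -0.172 to 0.0102 for Tnfrsf14, -0.0532 to 0.0428 for Tnfrsf1a, -0.158 to 0.0542 for Tnfrsf1b, -0.109 to 0.037 for Tnfsf13b, -0.169 to 0.111 for Tnfsf14 and -0.123 to 0.313 for Tnfsf15. The cause was not tested. The 2 correlations that passed did so with equal medians too, and Ltbr with the T cell list was then added (r = -0.804). No paired analysis was possible because no mouse number occurs in both groups.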
